A study of Rattus norvegicus with 21 samples.

Results

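Genes for ribosome biogenesis and the nucleolus were followed in rat carcinoma cells that received FGF1. The set holds 50 named genes: enzymes and partners of the snoRNPs, subunits of RNA polymerase I, assembly factors of both ribosomal subunits, nucleolar proteins, and Cad of pyrimidine synthesis. A gene was counted as measured where a probe set of the array carried its symbol and no other, and the probe set with the highest mean over all arrays stood for it. That gave 40 of the 50 genes, out of 10411 symbols on the array. Bop1, Ddx18, Nop2, Npm1, Npm3, Pno1, Pwp1, Rrp12, Utp14a and Utp18 had no such probe set and are not analysed here. For Npm1, the probe sets that name it also name a pseudogene.

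Total RNA came from NBTII, an epithelial line from a rat bladder carcinoma, and from NBTII-FGFR1, cells that the labels call transfected and whose name points to FGF receptor 1. FGF1 was given at 20 ng/ml together with heparin (50 µl/ml), and cells were taken at 0 h (control), 0.5 h, 2 h, 6 h, 24 h and 48 h. Each line has 2 arrays at 2, 6, 24 and 48 h. At 0 h there are 2 arrays of NBTII-FGFR1 and 1 of NBTII, and at 0.5 h each line has 1. No array after 0 h lacks FGF1, so the growth factor and the time in culture cannot be told apart. Whether replicates are separate cultures and whether NBTII-FGFR1 is 1 clone is not in the labels, so p-values measure the spread between these samples.

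Ribosomes are built in the nucleolus, where RNA polymerase I transcribes the rRNA precursor, snoRNPs guide its modification and processing, and assembly factors load ribosomal proteins onto it. It is among the most costly activities of a growing cell, and growth factor signals through ERK, mTOR and MYC are known to raise it in many cell types. MYC binds the E-box CACGTG, found near the start of many of these genes. NBTII cells are known to scatter and take on a mesenchymal look under FGF1.

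Because the genes below moved together, their promoters were read for shared letters. The sequences are those of RefSeq on the rat build GRCr8, in a window of 250 bases before and 50 after the annotated gene start, and 45 of the 50 genes had one. The E-box CACGTG, which reads the same on both strands, was in 18 of these 45 windows (40%), against 2148 of 33469 windows of all genes (6.42%). Of the 37 windows that belong to measured genes, 12 held it (32.4%). Of 101 windows of other ribosome biogenesis genes 25 held it (24.8%), and of 62 windows of cytosolic ribosomal protein genes 5 (8.06%). Among 56 windows of mitochondrial ribosomal protein genes 6 did (10.7%). CCGGAAG, an ETS-type motif, was searched on both strands and was in 21 of the 45 windows (46.7%) and in 8.75% of all windows. It was in 50.5% of the windows of other ribosome biogenesis genes, in 32.3% of those of cytosolic and in 32.1% of those of mitochondrial ribosomal protein genes. The 4 windows shown carry the E-box before or just after the start. They run 5′ to 3′ on the gene's strand from 250 bases before the start through the first 30 bases of the gene, with CACGTG in capitals. They belong to the methyltransferase Fbl (chr1:92597157-92597436, plus strand), the pseudouridine synthase Dkc1 (chrX:157751401-157751680, plus strand), the 60S assembly factor Pes1 (chr14:83074096-83074375, plus strand) and the nucleolar GTPase Gnl3 (chr16:6219753-6220032, minus strand).
Fbl: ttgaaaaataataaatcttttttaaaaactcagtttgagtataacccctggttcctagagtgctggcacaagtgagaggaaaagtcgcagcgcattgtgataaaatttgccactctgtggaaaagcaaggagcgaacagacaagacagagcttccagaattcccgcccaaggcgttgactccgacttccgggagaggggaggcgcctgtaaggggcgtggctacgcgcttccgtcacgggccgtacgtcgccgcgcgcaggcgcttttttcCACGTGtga
Dkc1: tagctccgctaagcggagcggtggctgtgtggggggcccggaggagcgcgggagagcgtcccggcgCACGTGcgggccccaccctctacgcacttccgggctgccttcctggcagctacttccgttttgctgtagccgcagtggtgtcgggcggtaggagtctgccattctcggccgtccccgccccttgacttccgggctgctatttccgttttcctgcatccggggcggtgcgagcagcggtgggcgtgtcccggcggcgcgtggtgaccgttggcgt
Pes1: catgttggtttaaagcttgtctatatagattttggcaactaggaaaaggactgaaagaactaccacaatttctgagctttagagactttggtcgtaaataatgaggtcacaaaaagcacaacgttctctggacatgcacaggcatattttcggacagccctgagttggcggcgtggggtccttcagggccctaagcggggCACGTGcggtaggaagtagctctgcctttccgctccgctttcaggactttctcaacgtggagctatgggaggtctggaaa
Gnl3: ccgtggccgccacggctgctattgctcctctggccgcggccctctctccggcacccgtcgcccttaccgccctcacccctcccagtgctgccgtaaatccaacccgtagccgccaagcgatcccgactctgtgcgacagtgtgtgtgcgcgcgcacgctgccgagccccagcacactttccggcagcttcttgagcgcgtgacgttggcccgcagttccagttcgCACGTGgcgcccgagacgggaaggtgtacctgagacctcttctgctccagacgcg

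The E-box begins 21 bases after the start in Fbl, and 184, 50 and 25 bases before it in Dkc1, Pes1 and Gnl3. The 12 measured genes with CACGTG and the 25 without it were set side by side in 5 comparisons. In NBTII-FGFR1 the median log2 differences with and without it were -0.22 and -0.39 at 2 h against 0 h, -0.52 and -0.60 at 6 h against 0 h, 0.45 and 0.45 from 6 to 24 h, and -0.54 and -0.52 from 24 to 48 h. In NBTII they were 0.41 and 0.28 from 6 to 24 h. A match of letters is a description of these windows, and no binding was measured.

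The measured genes were among the brighter ones. Their mean log2 signals ran from 7.55 (Polr1a) to 11.19 (Ncl), with a median of 9.10, between percentiles 68.2 and 97.5 of all probe sets. Over the 21 arrays a gene's range was 0.52 (Imp4) to 1.76 (Cad), with a median of 0.96 log2 units. On this scale 1 unit is a factor of 2, and brightness depends on the probe, so levels of different genes are not compared. As RMA brings the probes of all arrays to 1 distribution, each difference is relative to the bulk of transcripts. Fewer cells of a type cannot be told apart from less RNA per cell. The deposited probe set values still differed between arrays, with medians of 6.13 to 6.21 and lower quartiles of 4.36 to 4.54.

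Of 13 epithelial markers 9 were measured. Krt5, Krt14, Krt8, Cdh1, Epcam, Dsp and Jup had mean signals of 8 or more, and 1 of the 9 was below 4.54. Array means over the 9 markers were 8.53 to 10.11, and the markers changed over time, as given beside the steps. Means over leukocyte markers were 4.20 to 4.50, over endothelial markers 3.90 to 4.20 and over fibroblast markers 4.19 to 4.48, near the arrays' lower quartiles of 4.36 to 4.54. Replicates correlated at 0.988 to 0.997 over all probe sets. The library labelled NBTII-FGFR1 0 h replicate 1 read 3.57 for Fgfr1, the receptor gene the line is named for, like the NBTII arrays (3.58 to 4.05), against 5.92 in replicate 2, and the other arrays of that line read 4.56 to 7.58. For Fos, an early response gene, it read 9.52, near replicate 2 (9.03) and far from the NBTII array of 0 h (4.90), and for Myc 10.32, against 10.24 and 9.53. That library and NBTII-FGFR1 2 h replicate 1, from the group with the lowest correlation between replicates, are called the doubted arrays. That correlation does not tell which of the 2 arrays at 2 h deviates, so results are also given without replicate 2 where they move. For Fgfr1, NBTII-FGFR1 24 h replicate 1 read 4.56, the lowest of that line after the doubted library, against 6.14 in replicate 2. It is not among the doubted arrays, and the steps from 6 to 24 h and from 24 to 48 h are also given without it. The 15 poly-A spike probe sets averaged 5.88 to 6.35 at 0 h (3 arrays), against 5.22 to 5.57 on the 18 arrays after it, so every difference from 0 h also sets these ranges against each other. Their part in the results was not tested, and the steps from 6 to 24 h and from 24 to 48 h use no array of 0 h.

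In NBTII-FGFR1 the ribosome biogenesis genes were high at 0 h, low at 6 h, high again at 24 h and lowest at 48 h. The median deviation of the 40 genes from their own mean over all arrays was 0.29 at 0 h, 0.04 at 0.5 h, -0.09 at 2 h, -0.23 at 6 h, 0.22 at 24 h and -0.36 at 48 h. In NBTII the course was flatter, with 0.15, 0.02, -0.13, -0.08, 0.27 and -0.01 at the same times. Over all 12 groups, 15 genes had their lowest mean in NBTII-FGFR1 at 48 h and 9 in NBTII-FGFR1 at 6 h, while 14 had their highest in NBTII at 24 h and 12 in NBTII-FGFR1 at 0 h. In both 48 h arrays of NBTII-FGFR1 only 2 and 3 of the 40 genes lay above their own mean, against 20 and 14 in the 48 h arrays of NBTII.

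**Figure D1:**
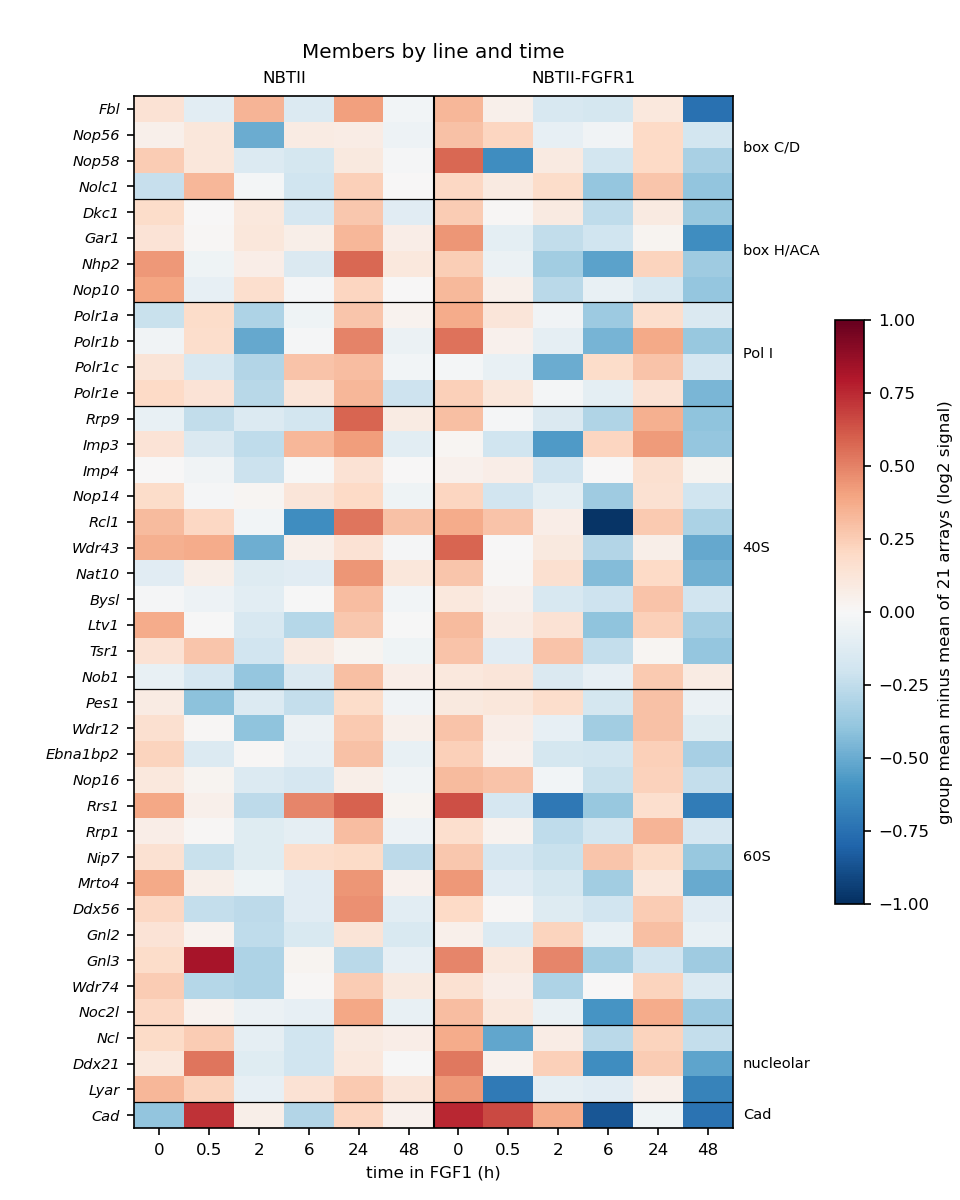
Group mean minus the gene's mean over 21 arrays (log2 signal, colour) for the 40 measured genes, in rows by role, and the 12 groups of line and time in columns. The columns of NBTII-FGFR1 at 6 h and 48 h are mostly blue (below the mean), and those of 0 h and 24 h mostly red.

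**Figure D2:**
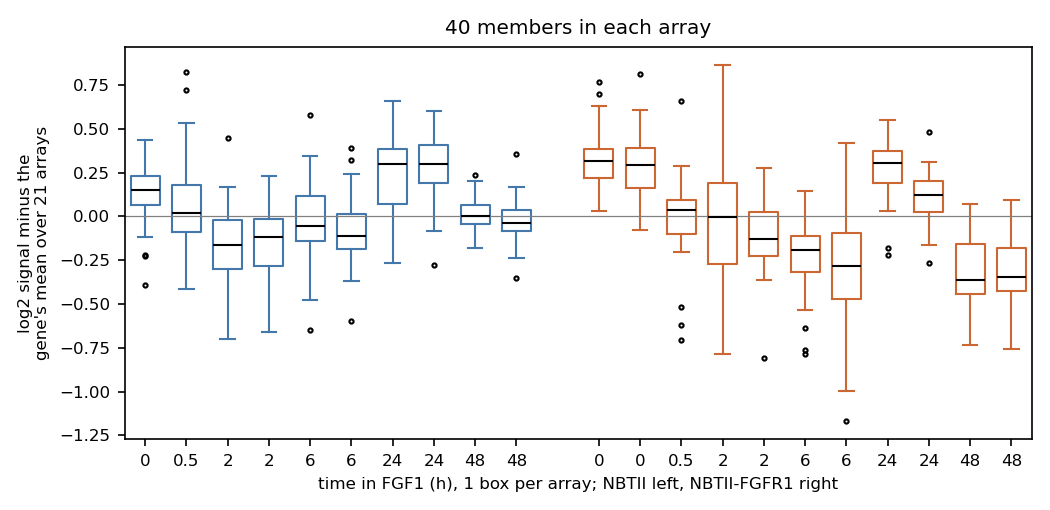
Log2 signal of the 40 genes minus each gene's mean over 21 arrays, 1 box per array (line at the median, box over the quartiles, whiskers to 1.5 times the box, points beyond), by time in FGF1. The medians are lowest in the 48 h arrays of NBTII-FGFR1 (-0.36 and -0.34) and near 0.30 in 3 of the 4 arrays of 24 h; the fourth, NBTII-FGFR1 24 h replicate 2, is at 0.12, and NBTII-FGFR1 2 h replicate 1 has the widest box.

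Differences were tested gene by gene with limma over all 15866 probe sets, with Benjamini-Hochberg adjustment, and are called at an adjusted p under 0.05. The shares of all probe sets beside the counts include dim ones. At 6 h against 0 h in NBTII-FGFR1, 3382 probe sets were called either way. When only those at or above the median level were tested, which kept all 40 genes, 2905 were called. These counts were 2346 and 2013 for 6 to 24 h, and 1518 and 1464 for 24 to 48 h. The share called is thus higher among brighter probe sets, such as those of the 40 genes, than over all. Values in brackets are log2 differences, later minus earlier time or NBTII-FGFR1 minus NBTII, with the standard error after ± and the adjusted p. At 0.5 h against 0 h, in the mean over both lines, 2 of 40 genes fell (0.517% of all probe sets were called lower) and 0 rose. These were Nop58 (-0.67 ± 0.11, adjusted p = 0.0037) and Lyar (-0.63 ± 0.15, adjusted p = 0.044), and 13 genes had an unadjusted p under 0.05. Most of both falls lay in NBTII-FGFR1. Nop58 went there from 11.76 to 10.56 and Lyar from 10.43 to 9.29. In NBTII they went from 11.44 to 11.30 and from 10.33 to 10.22. The single 0.5 h array of each line was never left out. Without single arrays the count was 1 or 4 in 11 of the 18 fits, being 4 without either 2 h array of NBTII-FGFR1 and 1 without the doubted library labelled 0 h, without either 6 h array of NBTII, without either 24 h array of NBTII-FGFR1, or without any 48 h array of either line. The median of the 40 genes was -0.20, against -0.03 for all probe sets.

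At 2 h in NBTII-FGFR1, 13 of 40 genes were lower than at 0 h and 0 were higher, where 4.08% of all probe sets were called lower and 5.27% higher. The median was -0.38 against -0.06 for all probe sets. Rrs1, which helps to bring the 5S rRNA particle into the large subunit, fell most (-1.36 ± 0.17, adjusted p = 0.00021). Gar1, Polr1b, Mrto4, Nhp2 and Imp3 followed, with log2 differences of -0.69 to -0.58. Without 2 h replicate 1 the differences of Gar1 (-0.35), Mrto4 (-0.38), Nhp2 (-0.25) and Imp3 (-0.36) were smaller, and without 2 h replicate 2 that of Polr1b was (-0.39), while that of Nhp2 was larger (-0.94). The count was 1 (Rrs1) without the doubted library labelled 0 h, 3 without 0 h replicate 2, 6 without 2 h replicate 1, 12 without 2 h replicate 2 and 2 without both doubted arrays, while the median without both was -0.36.

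By 6 h, 28 of the 40 genes had fallen below 0 h in NBTII-FGFR1 and 0 had risen (11.9% of all probe sets called lower, 9.38% higher), with a median of -0.56 against 0.02. In 36 genes both arrays of 6 h lay below both of 0 h, as in 28.3% of all probe sets, and in 1 they lay above. Cad fell most (-1.61 ± 0.16, adjusted p = 1.3e-05), then Rcl1 (-1.35 ± 0.14, adjusted p = 2.0e-05), Ddx21 (-1.15 ± 0.28, adjusted p = 0.0075), Rrs1 (-1.02 ± 0.17, adjusted p = 0.00068), Polr1b (-1.0 ± 0.17, adjusted p = 0.00087) and Noc2l (-0.90 ± 0.12, adjusted p = 0.00013). Without the doubted library labelled 0 h there were 18 calls, without 6 h replicate 2 there were 17, and without both doubted arrays 22, with a median of -0.51. Cad, Rcl1, Noc2l, Nop58, Rrs1, Nat10, Polr1b, Mrto4, Wdr12, Polr1a, Gnl3, Nop16 and Nhp2 were called in all 18 fits that leave out 1 array.

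At 24 h in NBTII-FGFR1, 2 of 40 genes were below 0 h (2.73% of all probe sets), Cad (-0.80 ± 0.16, adjusted p = 0.009) and Gnl3 (-0.68 ± 0.18, adjusted p = 0.035). The median was -0.08 (-0.05 and -0.13 without 0 h replicate 1 or 2, -0.17 without 24 h replicate 1 and 0.01 without 24 h replicate 2), and 10 genes had an unadjusted p under 0.05. The count was 0 without either 0 h array or without 24 h replicate 2, 1 without 24 h replicate 1 or either 48 h array, and 4 without either 2 h array, all of NBTII-FGFR1. At 48 h, 31 of 40 genes were below 0 h and 0 above (10.9% of all probe sets lower, 10.5% higher). All 40 differences were negative, with a median of -0.64. The largest were those of Cad (-1.50 ± 0.16, adjusted p = 1.8e-05), Rrs1 (-1.35 ± 0.17, adjusted p = 7.2e-05), Lyar (-1.10 ± 0.16, adjusted p = 0.00022), Wdr43 (-1.09 ± 0.19, adjusted p = 0.00067), Fbl (-1.08 ± 0.13, adjusted p = 6.1e-05) and Gar1 (-1.06 ± 0.18, adjusted p = 0.00066). Of the 9 epithelial markers, 4 were higher than 0 h and 0 lower at 2 h, 3 higher and 1 lower at 6 h. Against 0 h, 5 were lower at 24 h (median -0.52) and 5 at 48 h (median -0.86, lowest -3.51), with 0 higher, and their part was not tested. For the ribosome biogenesis genes the 48 h count was 19 without the doubted library labelled 0 h, 20 without 48 h replicate 1 and 27 without both doubted arrays.

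The steps between times compare arrays that were all in FGF1. From 2 to 6 h in NBTII-FGFR1, 9 of 40 genes fell (9.59% of all probe sets) and 3 rose (7.4%), with a median of -0.19. Cad (-1.23 ± 0.16, adjusted p = 0.0002), Rcl1 (-1.05 ± 0.14, adjusted p = 0.00027), Ddx21 (-0.86 ± 0.28, adjusted p = 0.044) and Gnl3 (-0.84 ± 0.18, adjusted p = 0.0051) fell most, while Imp3 (0.78 ± 0.15, adjusted p = 0.0031), Polr1c (0.67 ± 0.12, adjusted p = 0.0014) and Nip7 (0.50 ± 0.12, adjusted p = 0.0086) rose. Ddx21 was at -0.36 without 2 h replicate 1, -1.36 without 2 h replicate 2 and -0.49 without 6 h replicate 2, and Gnl3 at -0.47 without 2 h replicate 1. The count was 7 without 2 h replicate 1, 5 without 6 h replicate 2, 18 without 2 h replicate 2 and 6 without both doubted arrays.

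From 6 to 24 h the direction turned. In NBTII-FGFR1, 22 of 40 genes rose and 0 fell (8.98% of all probe sets higher, 5.81% lower), with 38 differences above 0 and a median of 0.45 against -0.05 for all probe sets. Rcl1 (1.24 ± 0.14, adjusted p = 9.8e-05), Noc2l (0.96 ± 0.12, adjusted p = 0.00022), Ddx21 (0.87 ± 0.28, adjusted p = 0.046), Polr1b (0.84 ± 0.17, adjusted p = 0.0051), Cad (0.82 ± 0.16, adjusted p = 0.0032) and Nhp2 (0.76 ± 0.16, adjusted p = 0.0069) rose most. Ddx21 lost its call in 15 of 18 fits without 1 array and was at 0.49 without 6 h replicate 2. Over the same step 7 of 9 epithelial markers fell and 0 rose (median -0.76), and in NBTII also 7 fell and 0 rose (median -1.10). Their part in the results was not tested. The count of the ribosome biogenesis genes was 11 without 6 h replicate 2 and 5 without 24 h replicate 1, and Rcl1, Noc2l, Rrp1 and Nat10 kept their calls in all 18 fits.

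From 24 to 48 h in NBTII-FGFR1 the genes fell again, 24 of 40 with a call and 0 the other way (5.44% of all probe sets lower, 4.13% higher). In all 40 genes both arrays of 48 h lay below both of 24 h, as in 28.7% of all probe sets, and the median was -0.54 against 0.00 for all probe sets. Rrs1 (-0.87 ± 0.17, adjusted p = 0.0052), Fbl (-0.85 ± 0.13, adjusted p = 0.0012), Imp3 (-0.82 ± 0.15, adjusted p = 0.0036), Rrp9 (-0.76 ± 0.14, adjusted p = 0.0036), Polr1b (-0.76 ± 0.17, adjusted p = 0.014) and Noc2l (-0.74 ± 0.12, adjusted p = 0.0015) fell most. The count was 4 without 24 h replicate 1, 6 without 48 h replicate 1 and 10 without 48 h replicate 2. Fbl, Noc2l and Imp3 kept their calls in all 18 fits. Of the 9 epithelial markers 2 fell and 0 rose at this step.

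In NBTII, with a single array at 0 h, few differences from 0 h passed. At 2 h, 1 of 40 genes was lower (0.983% of all probe sets), Wdr74, a large subunit factor (-0.56 ± 0.13, adjusted p = 0.036), and at 6 h again 1 (2.2% lower, 3.7% higher), Rcl1 (-0.94 ± 0.17, adjusted p = 0.0044). The medians were -0.30 and -0.17, and 17 and 7 genes had an unadjusted p under 0.05. At 24 h the count was 0 (0.939% of all probe sets called either way), with 7 genes at an unadjusted p under 0.05 and a median of 0.12. At 48 h it was also 0 (0.908%), with 4 such genes and a median of -0.17. The 2 h count was 0 without NBTII 2 h replicate 1, either 6 h array of NBTII or any of the 4 arrays of 48 h. Without either 2 h array of NBTII-FGFR1 it was 3, and the 6 h count was 2.

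The step from 6 to 24 h was also seen in NBTII, which shares no array with NBTII-FGFR1. There 12 of 40 genes rose and 0 fell (3.93% of all probe sets higher, 4.37% lower), with a median of 0.31 against 0.03. Rcl1 (1.16 ± 0.14, adjusted p = 0.00025), Rrp9 (0.76 ± 0.14, adjusted p = 0.0042), Nhp2 (0.71 ± 0.16, adjusted p = 0.015), Ddx56 (0.57 ± 0.12, adjusted p = 0.011), Fbl (0.55 ± 0.13, adjusted p = 0.02) and Nat10 (0.55 ± 0.12, adjusted p = 0.011) were among them. Of the genes that rose, 9 were shared, which is 40.9% of the 22 in NBTII-FGFR1 and 75% of the 12 in NBTII. Of all probe sets that rose, the shared ones were 35.7% of those in NBTII-FGFR1 and 81.5% of those in NBTII, so the shares among the 40 genes were near those of all probe sets. In NBTII the count was 3 and 5 without 6 h replicate 1 or 2, and 4 without either 24 h array.

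From 2 to 6 h in NBTII, 4 of 40 genes rose (2.22% of all probe sets) and 1 fell (1.08%). Rrs1 (0.75 ± 0.17, adjusted p = 0.028), Imp3 (0.59 ± 0.15, adjusted p = 0.046), Polr1c (0.58 ± 0.12, adjusted p = 0.014) and Nop56 (0.58 ± 0.13, adjusted p = 0.027) rose, and Rcl1 fell (-0.60 ± 0.14, adjusted p = 0.03). The count was 1 without 2 h replicate 1 and 0 without 2 h replicate 2 or either 6 h array. From 24 to 48 h in NBTII limma called 0 of 40 genes (0.063% of all probe sets), with 18 at an unadjusted p under 0.05. Of these differences 39 were below 0, with a median of -0.26, and the smallest adjusted p was 0.091. Array weights gave 5 calls, all lower.

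**Figure D3:**
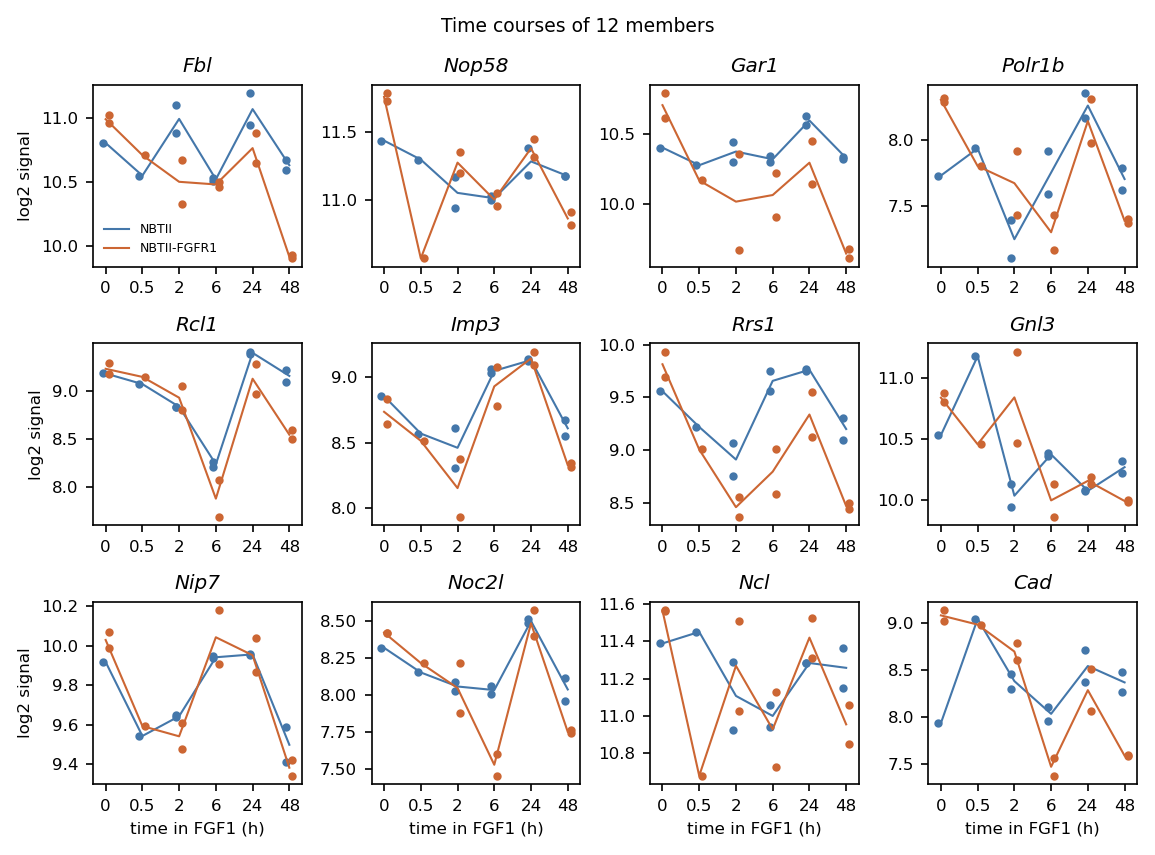
Log2 signal of 12 genes in each array (points) and group means (lines) against time in FGF1 (h, evenly spaced), for NBTII (blue) and NBTII-FGFR1 (orange). In Rcl1 both lines drop at 6 h and return at 24 h, and in Fbl, Gar1, Rrs1 and Cad the orange points at 48 h lie below the blue ones.

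Between the lines at the same time, the largest count was at 48 h, where 9 of 40 genes were lower in NBTII-FGFR1 than in NBTII and 0 were higher (3.71% of all probe sets lower, 4.75% higher). Lyar (-0.79 ± 0.16, adjusted p = 0.0081), Cad (-0.78 ± 0.16, adjusted p = 0.0073), Rrs1 (-0.73 ± 0.17, adjusted p = 0.017), Fbl (-0.72 ± 0.13, adjusted p = 0.0046), Gar1 (-0.68 ± 0.18, adjusted p = 0.03) and Rcl1 (-0.61 ± 0.14, adjusted p = 0.015) differed most, and the median was -0.28. At that time 3 of 9 epithelial markers were lower in NBTII-FGFR1 and 0 higher (median -0.28), and their part was not tested. Each of the 4 arrays of 48 h carried that count, which was 0 without NBTII replicate 1, 4 without NBTII replicate 2, 0 without NBTII-FGFR1 replicate 1 and 2 without NBTII-FGFR1 replicate 2.

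At 2 h, 1 gene was higher in NBTII-FGFR1 (1.46% of all probe sets), Gnl3 (0.80 ± 0.18, adjusted p = 0.034). At 6 h, 2 genes were lower (1.1%), Rrs1 (-0.86 ± 0.17, adjusted p = 0.026) and Noc2l (-0.51 ± 0.12, adjusted p = 0.048). At 24 h the limma count was 0 (0.101% of all probe sets), with 3 genes at an unadjusted p under 0.05. The Gnl3 difference at 2 h was 0.43 without NBTII-FGFR1 2 h replicate 1. The 2 h count was 0 without that array, NBTII 2 h replicate 1, any 48 h array or both doubted arrays. It was 5 (4 higher, 1 lower) without NBTII 2 h replicate 2 and 13 (8 higher, 5 lower) without NBTII-FGFR1 2 h replicate 2. The 6 h count was 2 without either 2 h array of NBTII-FGFR1, 0 without either NBTII 6 h array or NBTII-FGFR1 6 h replicate 2, and 1 without any other single array.

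Averaged over 2 to 48 h, 11 of 40 genes were lower in NBTII-FGFR1 (8.12% of all probe sets) and 0 were higher. Rrs1 (-0.62 ± 0.09, adjusted p = 0.00031), Nhp2 (-0.41 ± 0.08, adjusted p = 0.004), Gar1 (-0.40 ± 0.09, adjusted p = 0.0076) and Fbl (-0.39 ± 0.07, adjusted p = 0.0013) differed most, and these 4 with Rcl1, Mrto4, Cad and Lyar kept their calls in all 18 fits. Whether the time course differed between lines was tested directly. For the step from 6 to 24 h limma called 0 of 40 genes (0.0063% of all probe sets), with 2 at an unadjusted p under 0.05. The F test over 2 to 48 h also called 0 (0.441%), with 14 at an unadjusted p under 0.05, led by Nat10 (adjusted p = 0.087), and it called 7 without NBTII-FGFR1 2 h replicate 2.

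The roles are taken in the order of the pathway. RNA polymerase I, which transcribes the rRNA precursor, was measured through 4 subunits. Polr1b, which encodes the second largest subunit, read in NBTII-FGFR1 8.29 and 8.32 at 0 h, 7.81 at 0.5 h, 7.92 and 7.44 at 2 h, 7.44 and 7.17 at 6 h, 8.31 and 7.98 at 24 h and 7.40 and 7.38 at 48 h. The NBTII values were 7.73 at 0 h, 7.94 at 0.5 h, 7.40 and 7.11 at 2 h, 7.92 and 7.59 at 6 h, 8.36 and 8.17 at 24 h and 7.79 and 7.62 at 48 h. In NBTII-FGFR1 the 24 h arrays lay above those of 6 h and 48 h, and in NBTII both 24 h arrays were above all others of that line. Polr1e, a further subunit of the enzyme, read in NBTII-FGFR1 8.21 and 7.95 at 0 h, 7.96 at 0.5 h, 7.90 and 7.74 at 2 h, 7.76 and 7.74 at 6 h, 8.12 and 7.86 at 24 h and 7.39 and 7.38 at 48 h. Its values in NBTII were 8.04 at 0 h, 7.98 at 0.5 h, 7.52 and 7.61 at 2 h, 7.95 and 7.98 at 6 h, 8.18 and 8.16 at 24 h and 7.66 and 7.61 at 48 h. The 48 h arrays of NBTII-FGFR1 were the lowest of all 21, and the fall from 0 h in NBTII-FGFR1 was called (-0.70 ± 0.12, adjusted p = 0.00064). Polr1a, the largest subunit, fell at 6 h (-0.73 ± 0.15, adjusted p = 0.0034) and Polr1c, which RNA polymerase III also uses, was the one subunit above 0 h at 6 h in NBTII-FGFR1 (0.20).

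Box C/D snoRNPs methylate rRNA. Fbl, their methyltransferase, read in NBTII-FGFR1 11.02 and 10.96 at 0 h, 10.71 at 0.5 h, 10.33 and 10.67 at 2 h, 10.46 and 10.50 at 6 h, 10.88 and 10.65 at 24 h and 9.93 and 9.90 at 48 h. The other line, NBTII, gave 10.81 at 0 h, 10.55 at 0.5 h, 11.10 and 10.89 at 2 h, 10.53 and 10.51 at 6 h, 11.20 and 10.94 at 24 h and 10.67 and 10.59 at 48 h. Both 48 h arrays of NBTII-FGFR1 were the lowest of all 21, and from 24 to 48 h Fbl fell in that line (-0.85 ± 0.13, adjusted p = 0.0012). Nop58, a scaffold protein of the particle, read in NBTII-FGFR1 11.73 and 11.79 at 0 h, 10.56 at 0.5 h, 11.19 and 11.35 at 2 h, 10.95 and 11.05 at 6 h, 11.45 and 11.31 at 24 h and 10.81 and 10.91 at 48 h. In NBTII the readings were 11.44 at 0 h, 11.30 at 0.5 h, 10.93 and 11.16 at 2 h, 11.02 and 11.0 at 6 h, 11.18 and 11.39 at 24 h and 11.17 and 11.17 at 48 h. The single 0.5 h array of NBTII-FGFR1 was the lowest of Nop58, and by 2 h both arrays were above it. Nop56, the other scaffold protein, read in NBTII-FGFR1 10.91 and 10.90 at 0 h, 10.83 at 0.5 h, 10.63 and 10.43 at 2 h, 10.64 and 10.51 at 6 h, 10.93 and 10.70 at 24 h and 10.45 and 10.41 at 48 h, and in NBTII 10.67 at 0 h, 10.72 at 0.5 h, 10.10 and 10.13 at 2 h, 10.82 and 10.56 at 6 h, 10.54 and 10.83 at 24 h and 10.60 and 10.52 at 48 h. Its 2 h arrays in NBTII were the lowest of all 21. At 48 h against 0 h all 4 box C/D genes had fallen in NBTII-FGFR1, with the snoRNP chaperone Nolc1 at -0.61 ± 0.15 (adjusted p = 0.01).

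Box H/ACA snoRNPs convert uridine in rRNA to pseudouridine. Dkc1, their enzyme, read in NBTII-FGFR1 9.30 and 9.28 at 0 h, 9.05 at 0.5 h, 9.08 and 9.18 at 2 h, 8.63 and 8.93 at 6 h, 9.13 and 9.12 at 24 h and 8.71 and 8.61 at 48 h. NBTII gave 9.22 at 0 h, 9.04 at 0.5 h, 9.04 and 9.24 at 2 h, 8.92 and 8.81 at 6 h, 9.38 and 9.22 at 24 h and 8.96 and 8.88 at 48 h. In NBTII-FGFR1 the arrays of 6 h and 48 h were all below those of 0, 0.5, 2 and 24 h. Gar1, an enzyme partner, read in NBTII-FGFR1 10.62 and 10.80 at 0 h, 10.17 at 0.5 h, 9.68 and 10.36 at 2 h, 10.22 and 9.91 at 6 h, 10.45 and 10.15 at 24 h and 9.61 and 9.68 at 48 h. Its values in NBTII were 10.41 at 0 h, 10.28 at 0.5 h, 10.31 and 10.45 at 2 h, 10.30 and 10.35 at 6 h, 10.63 and 10.56 at 24 h and 10.34 and 10.32 at 48 h, a narrower range. The 2 arrays of NBTII-FGFR1 at 2 h were far apart for Gar1, with replicate 1, a doubted array, the lower one. Nhp2 and Nop10, the remaining partners, fell at 48 h against 0 h in NBTII-FGFR1 (-0.60 ± 0.16, adjusted p = 0.016 and -0.71 ± 0.20, adjusted p = 0.02), so all 4 genes of the particle were called there.

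The small subunit processome and 40S assembly gave 11 measured genes. Rcl1, a factor for early cuts of the precursor, read in NBTII-FGFR1 9.28 and 9.17 at 0 h, 9.14 at 0.5 h, 9.05 and 8.80 at 2 h, 8.07 and 7.69 at 6 h, 9.28 and 8.97 at 24 h and 8.50 and 8.59 at 48 h. In NBTII it read 9.18 at 0 h, 9.07 at 0.5 h, 8.83 and 8.83 at 2 h, 8.21 and 8.26 at 6 h, 9.41 and 9.38 at 24 h and 9.09 and 9.21 at 48 h. In both lines the 6 h arrays of Rcl1 lay below all arrays of the other times, and its fall at 6 h and rise at 24 h were called in both. Nat10, which acetylates rRNA, read in NBTII-FGFR1 8.0 and 7.80 at 0 h, 7.63 at 0.5 h, 7.78 and 7.79 at 2 h, 7.31 and 7.08 at 6 h, 7.92 and 7.73 at 24 h and 7.11 and 7.18 at 48 h. The NBTII values were 7.51 at 0 h, 7.68 at 0.5 h, 7.43 and 7.55 at 2 h, 7.57 and 7.45 at 6 h, 8.07 and 8.05 at 24 h and 7.83 and 7.64 at 48 h. In NBTII both 24 h arrays of Nat10 were the highest of the line, and in NBTII-FGFR1 the 6 h and 48 h arrays were the lowest. Nob1, the endonuclease of the final cut, read in NBTII-FGFR1 8.49 and 8.61 at 0 h, 8.57 at 0.5 h, 8.30 and 8.30 at 2 h, 8.35 and 8.37 at 6 h, 8.72 and 8.68 at 24 h and 8.51 and 8.53 at 48 h, and in NBTII 8.37 at 0 h, 8.27 at 0.5 h, 8.11 and 8.0 at 2 h, 8.27 and 8.32 at 6 h, 8.80 and 8.67 at 24 h and 8.53 and 8.48 at 48 h. It moved little, was called against 0 h at no time, and rose from 6 to 24 h in both lines (0.34 ± 0.10, adjusted p = 0.028 and 0.44 ± 0.10, adjusted p = 0.012). Imp3, which holds the U3 snoRNA on the precursor, took another course: it fell at 2 h in NBTII-FGFR1, rose from 2 to 6 h in both lines and fell from 24 to 48 h in NBTII-FGFR1. Imp4, its partner, was called in no comparison, and at 6 h 7 of the 11 genes were lower than at 0 h in NBTII-FGFR1.

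The 60S assembly factors gave 13 measured genes, 9 of them lower at 6 h and 9 at 48 h in NBTII-FGFR1. Rrs1 read in that line 9.94 and 9.69 at 0 h, 9.01 at 0.5 h, 8.55 and 8.36 at 2 h, 9.01 and 8.58 at 6 h, 9.55 and 9.13 at 24 h and 8.50 and 8.44 at 48 h. The other line, NBTII, gave 9.56 at 0 h, 9.22 at 0.5 h, 9.07 and 8.75 at 2 h, 9.75 and 9.56 at 6 h, 9.75 and 9.77 at 24 h and 9.30 and 9.10 at 48 h. In NBTII-FGFR1 Rrs1 was low from 0.5 h on except at 24 h, whereas in NBTII it was low at 2 h and back near its 0 h value at 6 h. Noc2l, a nucleolar protein related to a pre-60S export factor, read in NBTII-FGFR1 8.42 and 8.42 at 0 h, 8.22 at 0.5 h, 8.22 and 7.88 at 2 h, 7.60 and 7.45 at 6 h, 8.58 and 8.40 at 24 h and 7.74 and 7.76 at 48 h. In NBTII the readings were 8.32 at 0 h, 8.15 at 0.5 h, 8.03 and 8.09 at 2 h, 8.06 and 8.01 at 6 h, 8.52 and 8.49 at 24 h and 8.12 and 7.96 at 48 h. Its 6 h arrays in NBTII-FGFR1 were the lowest of all 21. Pes1, part of a complex with Bop1 and Wdr12, read in NBTII-FGFR1 8.81 and 8.95 at 0 h, 8.90 at 0.5 h, 8.97 and 8.94 at 2 h, 8.49 and 8.72 at 6 h, 9.17 and 8.98 at 24 h and 8.65 and 8.79 at 48 h, and in NBTII 8.87 at 0 h, 8.37 at 0.5 h, 8.49 and 8.80 at 2 h, 8.50 and 8.60 at 6 h, 8.94 and 8.99 at 24 h and 8.76 and 8.74 at 48 h. Pes1 was called in 1 comparison, its rise from 6 to 24 h in NBTII-FGFR1 (0.47 ± 0.13, adjusted p = 0.02), while Wdr12 fell at 6 h (-0.63 ± 0.13, adjusted p = 0.0026) and rose at 24 h (0.64 ± 0.13, adjusted p = 0.004).

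Gnl3, known as nucleostemin, had a course of its own. In NBTII-FGFR1 it read 10.87 and 10.80 at 0 h, 10.46 at 0.5 h, 11.21 and 10.47 at 2 h, 10.14 and 9.86 at 6 h, 10.13 and 10.19 at 24 h and 9.98 and 10.0 at 48 h. NBTII gave 10.53 at 0 h, 11.18 at 0.5 h, 9.94 and 10.13 at 2 h, 10.36 and 10.39 at 6 h, 10.08 and 10.07 at 24 h and 10.22 and 10.32 at 48 h. The highest values were those of the 0.5 h array of NBTII and of NBTII-FGFR1 2 h replicate 1, a doubted array. In NBTII-FGFR1 the 24 h arrays of Gnl3 lay near those of 6 h, and its log2 difference over that step was 0.16 ± 0.18. In NBTII both 24 h arrays lay below those of 6 h, with a difference that was not called (-0.30 ± 0.18, adjusted p = 0.39). Nip7 was above the gene's mean at 0 h, 6 h and 24 h in both lines, and fell from 24 to 48 h in NBTII-FGFR1 (-0.57 ± 0.12, adjusted p = 0.0062).

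Among nucleolar RNA-binding proteins, Ncl (nucleolin) read in NBTII-FGFR1 11.56 and 11.57 at 0 h, 10.68 at 0.5 h, 11.51 and 11.03 at 2 h, 11.13 and 10.72 at 6 h, 11.53 and 11.31 at 24 h and 10.85 and 11.06 at 48 h. In NBTII it read 11.39 at 0 h, 11.45 at 0.5 h, 10.92 and 11.29 at 2 h, 11.06 and 10.94 at 6 h, 11.28 and 11.29 at 24 h and 11.15 and 11.36 at 48 h. Ncl was lower at 6 h and 48 h than at 0 h in NBTII-FGFR1 (-0.64 ± 0.18, adjusted p = 0.017 and -0.61 ± 0.18, adjusted p = 0.021), and its 2 h arrays lay far apart, with the doubted array the higher one. Lyar, a nucleolar protein of proliferating cells, read in NBTII-FGFR1 10.58 and 10.29 at 0 h, 9.29 at 0.5 h, 9.90 and 9.92 at 2 h, 9.83 and 9.94 at 6 h, 10.03 and 10.07 at 24 h and 9.35 and 9.31 at 48 h. The NBTII values were 10.33 at 0 h, 10.22 at 0.5 h, 9.71 and 10.13 at 2 h, 10.10 and 10.19 at 6 h, 10.01 and 10.51 at 24 h and 10.08 and 10.17 at 48 h. The 0.5 h array and both 48 h arrays of NBTII-FGFR1 were the lowest of Lyar. Ddx21, an RNA helicase of rRNA transcription and processing, read in NBTII-FGFR1 9.75 and 9.84 at 0 h, 9.30 at 0.5 h, 10.01 and 9.0 at 2 h, 9.02 and 8.27 at 6 h, 9.71 and 9.32 at 24 h and 8.63 and 8.85 at 48 h, and in NBTII 9.37 at 0 h, 9.80 at 0.5 h, 9.07 and 9.22 at 2 h, 9.18 and 8.95 at 6 h, 9.55 and 9.18 at 24 h and 9.29 and 9.24 at 48 h. Its replicates lay far apart at 2 h and 6 h in NBTII-FGFR1, and its standard error was the largest of the set (0.28 for 6 h against 0 h).

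Cad, the enzyme of the first steps of pyrimidine synthesis and a known MYC target, had the widest range. In NBTII-FGFR1 it read 9.03 and 9.14 at 0 h, 8.99 at 0.5 h, 8.79 and 8.61 at 2 h, 7.57 and 7.38 at 6 h, 8.51 and 8.07 at 24 h and 7.60 and 7.58 at 48 h. The other line, NBTII, gave 7.94 at 0 h, 9.05 at 0.5 h, 8.47 and 8.30 at 2 h, 8.11 and 7.96 at 6 h, 8.72 and 8.37 at 24 h and 8.48 and 8.26 at 48 h. At 0 h the NBTII array was more than 1 unit below both NBTII-FGFR1 arrays, and at 0.5 h the lines read 9.05 and 8.99. With 1 NBTII array at 0 h, this line difference has no replicate on that side and was not tested. Cad fell from 2 to 6 h, rose from 6 to 24 h and fell from 24 to 48 h in NBTII-FGFR1.

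Over the 21 arrays the genes moved together. The median Pearson r over the 780 pairs of measured genes was 0.54, and 55.4% of pairs were above 0.5. Over all 54189255 pairs of the 10411 symbols, which include dim genes, the median was 0.01 and 5.92% were above 0.5. The arrays share cell lines and times, so these values describe the set and carry no test. Noc2l (0.92), Polr1b (0.90), Nat10 (0.88), Ebna1bp2 (0.88) and Mrto4 (0.87) followed the mean of the other genes most closely, and Polr1c (0.35), Gnl3 (0.35), Imp3 (0.42) and Nip7 (0.45) least.

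Further genes of ribosome biogenesis, from a list that holds none of the 50, fell and rose at several of the same steps. This list, like the 50 genes, was chosen with earlier results of these data known. Of 71 measured genes of that list, 14 were lower at 2 h than at 0 h in NBTII-FGFR1 (4.08% of all probe sets). At 6 h 28 were lower (11.9%) and at 48 h 37 (10.9%), with 0 higher at any of these times. From 2 to 6 h, 6 rose (7.4%) and 6 fell (9.59%) in NBTII-FGFR1, and 9 rose (2.22%) and 0 fell in NBTII. From 6 to 24 h, 25 rose (8.98%) and 0 fell in NBTII-FGFR1, and 18 rose (3.93%) and 0 fell in NBTII. From 24 to 48 h 32 fell (5.44%) and 0 rose in NBTII-FGFR1. Aatf, a small subunit processome factor, rose from 6 to 24 h in NBTII-FGFR1 (1.20 ± 0.13, adjusted p = 9.6e-05) and in NBTII (0.87 ± 0.13, adjusted p = 0.0013). Tcof1, a cofactor of rRNA transcription, fell at 6 h in NBTII-FGFR1 (-0.87 ± 0.14, adjusted p = 0.00044), and Polr1g, a further RNA polymerase I subunit, fell there from 24 to 48 h (-0.96 ± 0.13, adjusted p = 0.00049).

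The genes of the ribosomal proteins themselves were called almost nowhere. Of 78 cytosolic ribosomal protein genes 40 were measured. Their median mean signal was 13.05, near the top of the range, with a mean percentile of 96.4 among all probe sets. Of these 40 limma called 0 at 2 h and 6 h against 0 h and 0 from 6 to 24 h or from 24 to 48 h in NBTII-FGFR1, and 1 lower at 48 h against 0 h. Their median differences were -0.14, -0.03, 0.02 and 0.03 in the first 4 of these and -0.01 in the last. Of 67 mitochondrial ribosomal protein genes, 14 were lower at 2 h than at 0 h in NBTII-FGFR1 (4.08% of all probe sets) and 0 higher. At 6 h 20 were lower (11.9%) and 0 higher, and at 48 h 17 were lower (10.9%) and 1 higher (10.5%). In that line 21 rose from 6 to 24 h (8.98%) and 14 fell from 24 to 48 h (5.44%). In NBTII 11 rose from 6 to 24 h (3.93%).

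Nucleotide synthesis, which supplies rRNA transcription, gave 19 measured genes besides Cad. Of these, 12 were lower (11.9% of all probe sets) and 1 higher (9.38%) at 6 h against 0 h in NBTII-FGFR1. In that line 12 rose (8.98%) and 1 fell (5.81%) from 6 to 24 h, and 13 fell (5.44%) and 0 rose from 24 to 48 h. Ppat, the first enzyme of purine synthesis, fell at 6 h (-1.60 ± 0.21, adjusted p = 0.00012), and Gart of the same pathway fell (-1.31 ± 0.16, adjusted p = 5.7e-05). Umps, which completes UMP, rose from 6 to 24 h in NBTII-FGFR1 (0.91 ± 0.11, adjusted p = 0.00021) and in NBTII (0.89 ± 0.11, adjusted p = 0.00036).

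**Figure D4:**
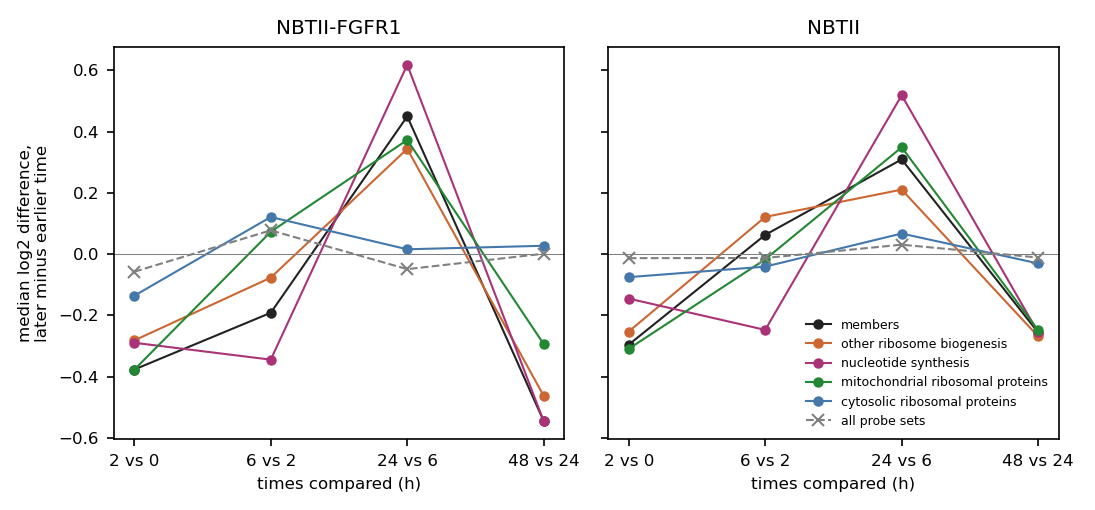
Median log2 difference of each gene list (later minus earlier time) at 4 steps in NBTII-FGFR1 (left) and NBTII (right), with the median of all probe sets (dashed). The black line of the 40 genes runs from 0.45 (6 to 24 h) to -0.54 (24 to 48 h) in NBTII-FGFR1, and the blue line of the cytosolic ribosomal proteins stays within -0.14 to 0.12.

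MYC, the best known activator of these genes, and the MXD proteins, which bind the same E-box with MAX and repress, were given as a list of 9 measured genes. At 6 h against 0 h in NBTII-FGFR1, 4 were higher and 0 lower, among them Mlx, a partner of the MXD proteins. Mxd1 (4.83 ± 0.51, adjusted p = 2.3e-05), Mxi1 (3.27 ± 0.28, adjusted p = 4.0e-06) and Mxd4 (1.97 ± 0.23, adjusted p = 4.9e-05) rose, then fell from 6 to 24 h (-2.65 ± 0.51, -2.25 ± 0.28 and -1.13 ± 0.23, in the same order). From 24 to 48 h Mxi1 (1.22 ± 0.28, adjusted p = 0.013) and Mxd4 (1.01 ± 0.23, adjusted p = 0.013) rose again, and Mxd1 was 1.40 ± 0.51 (adjusted p = 0.11). In NBTII the same 3 genes were higher at 6 h than at 0 h and fell from 6 to 24 h. The list also differed from 0 h at other times. In NBTII-FGFR1, 3 of the 9 genes were higher and 1 lower at 2 h (highest difference 4.14). At 24 h, 4 were still higher and 0 lower (highest 2.18). In NBTII, 2 were higher and 0 lower at 2 h (highest 3.91), and 0 were called at 24 h.

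Myc itself took another course. It was lower at 2 h than at 0 h in NBTII-FGFR1 (-0.64 ± 0.14, adjusted p = 0.0093), while its values at 6 h were 10.60 and 10.64 against 10.32 and 10.24 at 0 h. In NBTII it was higher at 6 h (1.21 ± 0.17, adjusted p = 0.00079) and fell from 6 to 24 h (-0.62 ± 0.14, adjusted p = 0.012), the step in which the ribosome biogenesis genes rose. At 48 h, 5 of the 9 genes of the list were higher in NBTII-FGFR1 than in NBTII and 0 were lower. Among them were Mxd1 (3.33 ± 0.51, adjusted p = 0.0013), Mxi1 (1.48 ± 0.28, adjusted p = 0.0048) and Mxd4 (1.07 ± 0.23, adjusted p = 0.011). Myc itself read 10.42 and 10.15 in NBTII-FGFR1 at 48 h, above the 9.86 and 9.77 of NBTII. Whether these factors bear on the ribosome biogenesis genes was not tested.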

How the data were processed

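Total RNA of 21 samples was measured on rat Affymetrix expression arrays, 1 per sample, after biotin labelling. The deposited log2 signals of 15923 probe sets are the authors' RMA values (submitters' processing notes), whose version is not stated in the sources used here. After removal of 57 controls, 15866 were tested with no filter on low values. By the platform annotation of GEO, 12783 probe sets have 1 gene symbol, 312 several and 2771 none.

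Groups came from the sample titles (12 groups, 9 with 2 arrays and 3 with 1). A linear model over the group means was fitted with limma 3.58.1 (R 4.3.3, 9 residual and 5.68 prior degrees of freedom) and tested on simulated data; it takes lone arrays to vary as much as the paired ones. Benjamini-Hochberg adjustment ran over all probe sets of each comparison. Tables and figures were made with Python 3.11.15, pandas 2.3.3, numpy 2.4.6 and matplotlib 3.10.9.

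The 50 genes, their roles and the other gene lists were chosen with earlier results of these data known. Named with errors were, per comparison, up to 4 called genes of a role and the 6 largest called differences each way; every array is given for Ncl, Fbl, Nop56, Dkc1, Polr1b, Pes1, Rrs1, Gnl3, Nob1, Cad and up to 2 genes per role with the smallest p in NBTII-FGFR1 against 0 h. From another list up to 4 genes with the smallest p in a comparison were named. Alternatives were a filter at the median level, a replicate block, only the arrays compared, repeated quantile normalization, array weights, averaging a gene's probe sets, no doubted arrays, and each of 18 arrays left out. Promoter windows are from RefSeq on GRCr8.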

Additional observations from a re-analysis of the deposited data

Results flagged for a closer look

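In 4 genes every array of a later time lay below every array of the earlier one in NBTII-FGFR1, while the order was the opposite in NBTII. From 2 to 6 h this held for 4 of 40 genes (10%) and 1.83% of all probe sets. From 24 to 48 h it held for 1 of 40 (2.5%), near the 2.26% of all probe sets. The reverse pattern, higher in NBTII-FGFR1 and lower in NBTII, held for 0 of 40 at either step and for 3.75% and 2.61% of all probe sets. From 6 to 24 h the first pattern held for 0 of 40 genes and 5.7% of all probe sets, and the reverse for 0 of 40 and 2.14%. From 2 to 6 h, the log2 difference of Gnl3, a nucleolar GTPase, was -0.84 in NBTII-FGFR1 (-0.47 without 2 h replicate 1) and 0.34 in NBTII. In the same step Tsr1, a late factor of the 40S subunit, was at -0.53 (-0.31 without that array) and 0.29, Polr1a, the largest subunit of RNA polymerase I, at -0.33 and 0.26, and Wdr12, a 60S factor, at -0.26 and 0.34. From 24 to 48 h Gnl3 was at -0.16 in NBTII-FGFR1 and 0.19 in NBTII. The difference between the lines was not tested for these single steps. The limma F test of line by time over 2 to 48 h gave an adjusted p of 0.091 for Gnl3, 0.14 for Tsr1, 0.39 for Polr1a and 0.25 for Wdr12. No group held the 4 samples that a search for outlying samples needs.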

How the results depend on the processing

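The direction of most calls in a comparison did not turn under these alternatives, but calls the other way appeared in some. Counts of the 40 genes called, over the 18 fits without 1 array, ran for NBTII-FGFR1 against 0 h from 1 to 14 at 2 h, 17 to 30 at 6 h, 0 to 4 at 24 h and 19 to 32 at 48 h, and for 0.5 h over both lines from 1 to 4. For NBTII against 0 h they ran from 0 to 3 at 2 h and 1 to 2 at 6 h. The steps in NBTII-FGFR1 gave 5 to 18 (2 to 6 h), 5 to 25 (6 to 24 h) and 4 to 29 (24 to 48 h), and in NBTII 0 to 6 and 3 to 17 for the first 2 of these. Line differences gave 0 to 13 at 2 h (13 being 8 higher and 5 lower, without NBTII-FGFR1 2 h replicate 2), 0 to 2 at 6 h and 0 to 11 at 48 h, and the F test 0 to 7. With only the arrays compared, counts were 0 for 0.5 h, 1 for NBTII-FGFR1 at 2 h, 0 in NBTII both at 2 h and at 6 h, 1 for 2 to 6 h and 10 for 6 to 24 h in NBTII-FGFR1, 0 and 7 for these steps in NBTII, and 0, 0 and 15 for the lines at 2, 6 and 48 h. Array weights gave 4 for 0.5 h, 4 and 6 for NBTII-FGFR1 at 2 and 24 h (1 of the 6 higher), 2 and 3 for NBTII at 2 and 6 h, 6 for NBTII-FGFR1 from 2 to 6 h, 5 for NBTII from 24 to 48 h, and 0 and 17 for the lines at 2 and 48 h. Repeated quantile normalization gave 14 for 6 to 24 h in NBTII-FGFR1 and 0 and 1 for the lines at 2 and 6 h, and the filter at the median level 2 for NBTII at 2 h. Without both doubted arrays counts were 1 for 0.5 h, 2 in NBTII-FGFR1 at 2 h, 3 and 2 in NBTII at 2 and 6 h, 6 for NBTII-FGFR1 from 2 to 6 h and 0 for the lines at 2 h. The cause of these shifts was not tested, beyond fewer arrays in the fits that leave some out. Whether replicate numbers pair the samples was not settled. The r of deviations between same-numbered samples was -0.13 to 0.35, with a median of 0.02 and 15 of 36 over 0.1. The main fits used no replicate block. With a block NBTII gave 2 calls at 6 h and 1 at 24 h, and the F test 1. The block moved no other count by over 1.5 times. Averaging a gene's probe sets moved no count so far. Arrays alone in their group (NBTII at 0 h, both lines at 0.5 h) stayed in all fits. The number of arrays limits the precision.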
